A study of Saccharomyces cerevisiae with 5 samples.

Results

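The Pool B self-self array was compared with the 3 Pool A self-self arrays. These are the 4 arrays of the series, out of 5, that the labels give as holding the same pool in both channels. The series used tag microarrays of budding yeast (Saccharomyces cerevisiae) heterozygous deletion strains, and its title gives better statistics for such arrays as the purpose. The strains were grown on rich agar, pooled and frozen, and the barcodes of the pooled genomic DNA were amplified with Cy3-labelled or Cy5-labelled primers in 50 PCR cycles. In Pool B, 94 strains were present undiluted, at 1:8 or at 1:64, and in Pool A the same strains were diluted further, by 0.33 to 5 log2 units, or left out. All other strains were meant to be equal in both pools, and the labels used here do not say which strains are the 94.

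The Pool B group is 1 array, with Pool B labelled in Cy3 and again in Cy5. The Pool A group is 3 arrays, each with Pool A labelled in Cy3 and again in Cy5. The fifth array, called the mixed array here, set Pool A in Cy3 against Pool B in Cy5. Its values for single strains are given only beside strains named below. The Pool B array bears another date in its title than the 3 Pool A arrays and the mixed array, so on this 1 array pool and date move together and cannot be told apart. The labels do not say whether the Pool A arrays had their own cultures or DNA extractions. All p-values therefore measure the spread between 3 arrays, which may be technical, and take the lone Pool B array to vary like them.

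Each strain of the deletion collection lacks a copy of 1 gene, which a drug-resistance cassette replaces. The cassette carries a pair of short barcode sequences, UPTAG and DNTAG, each flanked by primer sites that all strains share. PCR on the DNA of a whole pool therefore amplifies all barcodes together, and an array of complementary probes reads out how much of each barcode is present. On a self-self array both channels start from the same pool, so the amount of a strain cancels from the ratio by design and the ratio describes how its tags behaved in the 2 dyes.

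The spots lie in 2 blocks that repeat the same genes in the same order, 1 block for each kind of tag. Which block holds the UPTAGs is not stated, so the names used are first tag and second tag. The 18794 gene-named spots gave 10650 tags of 5325 strains, and every strain had both tags measured. Values are log2 ratios of the channels after subtracting the median of the named spots of that array, and a strain's value is the mean of its 2 tags. Which channel is on top of the ratio is not stated. It is likely Cy5 over Cy3, because the series design dilutes strains in Pool A and, on the mixed array against the Pool A mean, 14 strains were higher and 2 lower by at least 2 log2 units with both tags. A difference is always Pool B minus the Pool A mean, "higher" and "lower" refer to the Pool B array, and a call is a limma adjusted p (Benjamini-Hochberg over all strains or all tags) under 0.05.

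The Pool B array stood apart from the Pool A arrays before any strain was considered. Its named spots had a median of -0.77 before centring, against -0.33, 0.07 and 0.03 on Pool A arrays 1 to 3. The mixed array, at -0.50, lay between the Pool B array and Pool A array 1. Across the 5325 strains the Pool B values correlated with those of the Pool A arrays at Pearson's r = 0.30, 0.10 and 0.13. The Pool A arrays correlated among themselves at 0.79 to 0.90, and with the mixed array at 0.52, 0.41 and 0.56. These correlations run across strains that share a slide design, and they are given as a description. A stretch of 321 spots with no gene name lay at spot numbers 22255 to 22575. Its median was -1.99 on the Pool B array, against 7.19, 6.83 and 7.36 on the Pool A arrays and 7.88 on the mixed array. The Pool B label itself could not be checked, since the same pool lay in both of its channels.

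**Figure D1:**
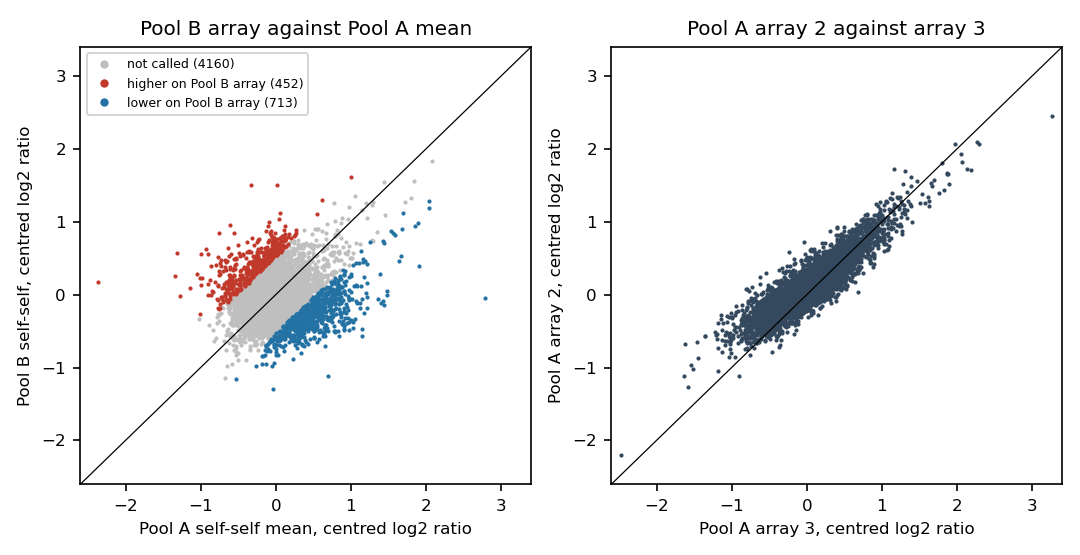
Each point is 1 of 5325 strains, and axes are centred log2 ratios of the 2 channels. The left panel sets the Pool B self-self array against the averaged Pool A self-self arrays (n = 3), with 452 strains called higher and 713 called lower on the Pool B array, and the right panel sets Pool A array 2 against array 3, where the points follow the diagonal (r = 0.90).

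Between the Pool B array and the Pool A arrays limma called 1165 of 5325 strains (21.9% called), 452 of them higher (8.49%) and 713 lower (13.4%) on the Pool B array. The typical call was small: the higher calls had a median difference of 0.66 log2 units and the lower calls of -0.73, and 49 higher and 114 lower calls reached 1. The median standard error (SE) of a strain's difference was 0.20. Over all strains the median difference was -0.03, with quartiles of -0.32 and 0.27. On the Pool B array 3946 strains (74.1%) lay outside the range of their own 3 Pool A values.

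The balance between higher and lower depended on how the arrays were centred and on which Pool A arrays entered. Centring each tag block separately gave 703 higher and 650 lower strains, quantile normalization gave 771 and 804, and centring on all spots, unnamed ones included, gave 222 and 594. Without centring the median difference of all strains was -0.72, and the counts were 5 higher and 1831 lower. Without Pool A array 2 they were 276 and 427, and without Pool A array 3 they were 202 and 480.

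The tags of a strain had little in common. Their differences had the same sign in 2811 of 5325 strains (52.8%). On single arrays the first and the second tag correlated across strains at r = 0.02 on the Pool B array, against 0.01, 0.12 and 0.19 on the Pool A arrays. Of 10650 tags limma called 2174 (20.4%), 812 higher (7.62%) and 1362 lower (12.8%). Among the 1165 called strains 890 had exactly 1 called tag and 146 had none. Over all 5325 strains the tags were called in opposite directions in 88, of which 4 were called strains.

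Both tags were called in the same direction in 125 strains, 33 higher (0.62%) and 92 lower (1.73%). Multiplying the shares of called first and second tags gives nearly the same, 0.57% higher and 1.60% lower, so the number of both-tag strains is close to that of tags called without regard to each other, and nothing is read from it. Tag calls were lost altogether without Pool A array 1, where limma called 0 tags at an adjusted p under 0.05 and 2207 higher and 2633 lower at an unadjusted p under 0.05; both tags then passed that unadjusted threshold in 254 higher and 401 lower strains. Without Pool A array 2 both tags were called in 15 higher and 48 lower strains, and without Pool A array 3 in 9 and 50, and without array 3 the higher tags numbered 450. As means over both tags, 122 of the 125 strains, 32 higher and 90 lower, were called in each of 11 alternatives, those other than no centring and the use of single-spot tags alone.

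The levels of these 125 strains are given as a description, since the same difference picked them. The 33 higher strains had a median difference of 0.95; their median value was 0.63 on the Pool B array and -0.36 on the Pool A arrays, and 28 of them had a Pool A mean below 0. The 92 lower strains had a median difference of -1.05; their median value was -0.37 on the Pool B array and 0.73 on the Pool A arrays, and 90 of them had a Pool A mean above 0. The strains furthest from 0 on Pool A mostly did not reach the same cut on Pool B. They were picked by an extreme Pool A value, so this too is given as a description. Of the 545 strains with a Pool A mean of at least 0.5, 89 were at or above 0.5 on the Pool B array, where the median of the 545 was 0.01. Of the 248 strains with a Pool A mean of -0.5 or less, 30 were at or below -0.5 on the Pool B array. Of 75 strains with a Pool A mean of at least 1, 15 were also at or above 1 on the Pool B array, where the median of the 75 was 0.44. The Pool B array had 28 strains at or above 1 in all, and their median Pool A mean was 1.10. Of 10 strains with a Pool A mean of -1 or less, 0 were at or below -1 on the Pool B array.

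**Figure D2:**
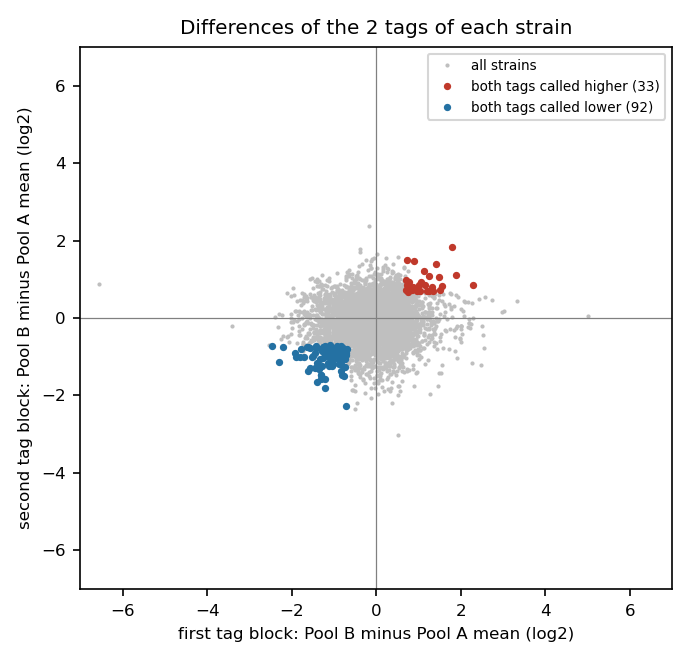
Each grey point is a strain, with the Pool B minus Pool A mean difference of its first tag on the x axis and of its second tag on the y axis, in log2 units. The 33 strains with both tags called higher lie in the upper right and the 92 with both called lower in the lower left, and the points furthest from the centre lie mainly along 1 axis.

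The strain with the largest difference among those called higher by both tags lacked a copy of CCT3 (YJL014W, chromosome X), which encodes a subunit of the cytosolic chaperonin that folds actin and tubulin. It had a value of 1.50 on the Pool B array, against -0.16, -0.46 and -0.35 on the Pool A arrays. It was below the array's centre on each Pool A array and far above it on Pool B, and its tags moved alike, by 1.80 and 1.84. The difference was 1.82 ± 0.20 (SE; limma adjusted p = 5.61e-07), and the mixed array gave 0.04.

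RPS6B (YBR181C, chromosome II), a gene for a protein of the small ribosomal subunit, came next. Its strain had 0.96 on the Pool B array, against -0.53, -0.59 and -0.71 on the Pool A arrays, and the groups lay on opposite sides of 0. Its tags differed by 2.29 and 0.85, and the mean by 1.57 ± 0.19 (adjusted p = 5.49e-06). DSD1 (YGL196W, chromosome VII) encodes a D-serine dehydratase. Its strain had 1.50 on the Pool B array, against 0.18, -0.09 and -0.05 on the Pool A arrays, so that here the Pool A values lay close to the centre and the Pool B value alone was extreme. It differed by 1.49 ± 0.20, with 1.88 and 1.10 in its tags.

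YDL086W (chromosome IV), a gene without a standard name in the files, had 0.85 on the Pool B array, against -0.27, -0.52 and -0.87 on the Pool A arrays. The spread over the Pool A arrays was wide, yet all 3 stayed below the Pool B value, and its tags differed by nearly the same amount, 1.41 and 1.39. FRD1, which encodes a soluble fumarate reductase, had 0.64 on the Pool B array, against -0.66, -0.79 and -0.46 on the Pool A arrays, a difference of 1.28 ± 0.20. OSH2, a gene of the oxysterol-binding protein family, had 0.40 on the Pool B array, against -0.48, -0.56 and -1.35 on the Pool A arrays. Pool A array 3 was far below the other Pool A arrays for this strain, and its SE of 0.24 was the largest of the 12.

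The other 6 strains of this group differed by 1.07 to 1.18. PEX29, a gene for a peroxisomal membrane protein, had 0.68 on the Pool B array, against -0.34, -0.45 and -0.70 on the Pool A arrays. GPI19, whose product works in the first step of glycosylphosphatidylinositol anchor synthesis, had 0.43 on the Pool B array, against -0.63, -0.83 and -0.75 on the Pool A arrays. It also had 1.96 on the mixed array, the highest mixed-array value of these 12 strains. GIC2, RPA34 (a subunit of RNA polymerase I) and YOR365C had values between 0.45 and 0.56 on the Pool B array, and each was below 0 on each Pool A array. UGA2, which encodes succinate semialdehyde dehydrogenase of the 4-aminobutyrate pathway, resembled DSD1: it had 1.12 on the Pool B array, against 0.23, -0.02 and -0.04 on the Pool A arrays. All 12 differences stayed positive without centring, but of the 12 only CCT3 was then called (adjusted p = 0.0146, against 0.0551 for RPS6B and up to 0.404 for UGA2).

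On the lower side the strain with the largest difference called by both tags lacked a copy of MRPL44 (YMR225C, chromosome XIII), a gene for a protein of the large subunit of the mitochondrial ribosome. It had -0.56 on the Pool B array, against 0.93, 1.23 and 1.29 on the Pool A arrays. The groups lay on opposite sides of 0 and the gap between them was wider than the whole Pool A range. The difference was -1.71 ± 0.20 (adjusted p = 2.25e-06), with -2.30 and -1.13 in its tags.

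SSY5 (YJL156C, chromosome X) encodes the protease of the plasma membrane amino acid sensor. Its strain had -0.14 on the Pool B array, against 1.34, 1.70 and 1.31 on the Pool A arrays, a difference of -1.59 ± 0.20, and its tags were unequal at -2.46 and -0.71. SHM2 (YLR058C, chromosome XII) encodes cytosolic serine hydroxymethyltransferase. Its strain had -0.12 on the Pool B array, against 1.31, 1.50 and 1.39 on the Pool A arrays, and here the tags were alike at -1.39 and -1.64. UBX2, an adaptor that recruits the ATPase Cdc48 to the endoplasmic reticulum, was the only one of these 12 well above 0 in both groups. Its strain had 0.40 on the Pool B array, against 1.86, 1.72 and 2.14 on the Pool A arrays, and 1.90 on the mixed array, so the mixed array lay within the Pool A range.

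PEX18, a gene for a peroxisomal import protein of the PTS2 pathway, had -0.08 on the Pool B array, against 1.27, 1.61 and 1.38 on the Pool A arrays, and its second tag (-2.28) moved more than its first (-0.72). TFB1, whose product belongs to TFIIH, a factor in transcription and DNA repair, had 0.05 on the Pool B array, against 1.58, 1.73 and 1.16 on the Pool A arrays, with tags at -1.31 and -1.58. These strains were near the centre of the Pool B array and high on each Pool A array. CSM2 (a subunit of the Shu complex of homologous recombination) differed by -1.49, GLG2 (glycogenin, the primer of glycogen) by -1.48, MDM1 by -1.46 and DSK2 (a ubiquitin receptor) by -1.43. RRP14 (a ribosome biogenesis gene) differed by -1.41 and RPO26 (a subunit shared by the 3 nuclear RNA polymerases) by -1.40. In each of the 12 strains all 3 Pool A values exceeded the Pool B value. All 24 strains of both directions, picked for their large differences, were called in each of the 11 alternatives.

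**Figure D3:**
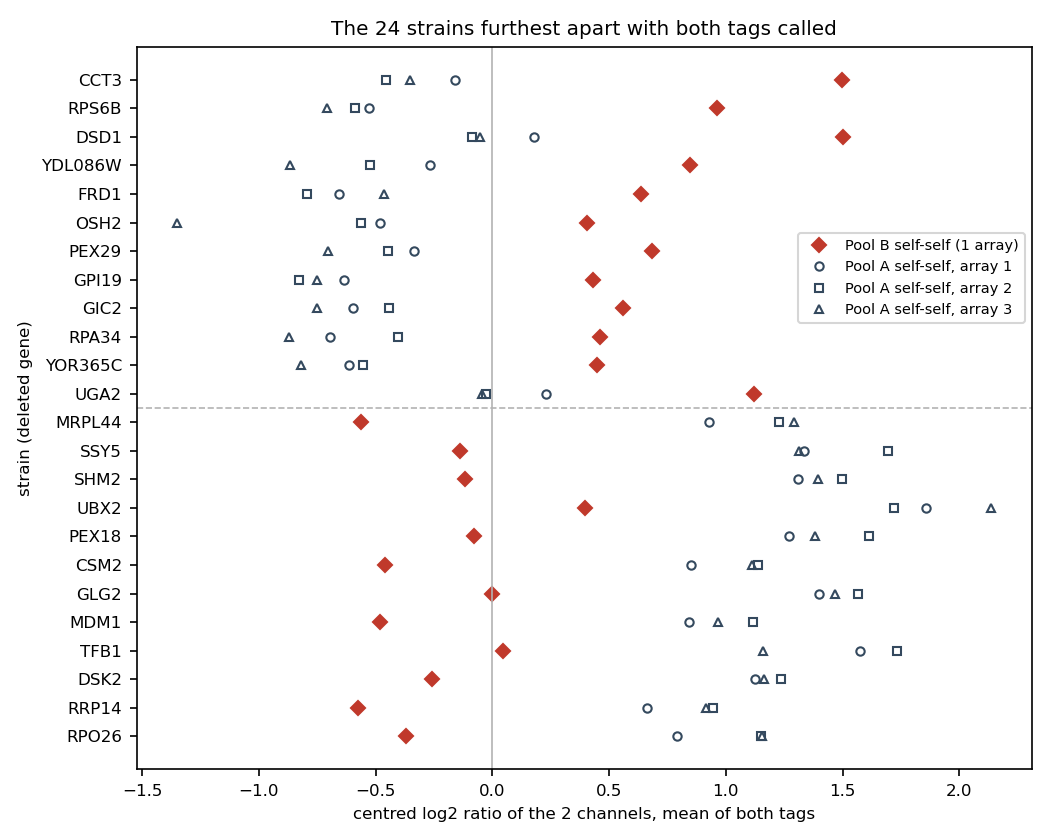
Centred log2 ratio, as the mean of both tags, of the 24 strains with the largest differences among those with both tags called, 12 higher above the dashed line and 12 lower below it. Filled diamonds are the Pool B self-self array and open symbols the 3 Pool A self-self arrays, and in no strain does the diamond lie within the Pool A values.

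Larger differences than these occurred in strains where 1 tag alone was called in the direction of the mean. They fall outside the rule for named strains and were picked after their values were seen. MAG1, a gene for a DNA repair glycosylase, had -0.04 on the Pool B array, against 2.65, 2.45 and 3.27 on the Pool A arrays, with the lowest difference of all strains at -2.83. Its first tag differed by -6.55 and its second by 0.89, so its tags were called in opposite directions. NUD1, a gene of the spindle pole body outer plaque, had 0.17 on the Pool B array, against -2.42, -2.19 and -2.47 on the Pool A arrays. Its difference of 2.53 was the highest of all and came from the first tag (5.00), the second differing by 0.06. In AIM2 (1.89) and PXP2 (-1.82) the first tag likewise carried the difference, at 3.33 and -3.42.

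Repeated spots allow a check of these tag values within an array. For 1562 tags the block holds a single spot and, elsewhere, a run of 5 more spots of the same tag. The difference at the single spot and the mean difference of the run correlated at r = 0.95 across these tags and had the same sign in 89.8% of them, so the tag differences recurred at a separate place on the slide. Spots within a run agreed most closely on the Pool B array, with a median SD of 0.05, against 0.08, 0.18 and 0.26 on the Pool A arrays. Within runs the median value depended on position: at the first and the fifth spot it was -0.01 and 0.01 on the Pool B array, against -0.03 and 0.04, -0.14 and 0.17, and -0.19 and 0.27 on the Pool A arrays. The median difference accordingly was 0.13 at the first spot of a run and -0.22 at the fifth.

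Gene classes were described by 39 lists, each set beside all strains (21.9% called, 8.49% higher and 13.4% lower, median difference -0.03). The higher and lower calls of each list are to be read beside these shares. List medians ran from -0.27 to 0.13 and the share of members called from 8.0% to 29.0%. In 27 lists lower calls outnumbered higher ones, as they did over all strains, and in 8 lists higher calls outnumbered lower ones. In each of 9 alternatives of scaling, centring, spot trend and left-out array, 27 lists stayed on the same side of the all-strain median. The alternatives of centring move all strains alike and could not change a list's side, so only the others bear on this. No list was as far from the all-strain median as the quartiles of all strains. The classes below are therefore told mainly through named strains, those with both tags called where a list had any. For these strains a signed number in brackets or after "by" or "at" is the difference in log2 units, unless an array is named beside it.

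Ribosomal protein genes had calls in both directions. Of 75 strains for the cytosolic large subunit 8 were higher (10.7%) and 10 lower (13.3%), beside 8.49% and 13.4% over all strains. RPL27B was the 1 both-tag strain of this list, at 0.77 on the Pool B array, against -0.22 ± 0.08 on the Pool A arrays (SD, n = 3). The list's difference furthest from 0 was -1.29, in another strain. Of 53 strains for the small subunit 5 were higher and 10 lower. RPS6B, described above, was the higher of its both-tag strains, and RPS28A, the lower, had -0.11 on the Pool B array, against 0.87 ± 0.35 on the Pool A arrays. The mitochondrial ribosome (74 strains) had 4 higher and 14 lower calls with a list median of 0.01. MRPL44 and SWS2 were its both-tag strains, both lower. The side of the all-strain median on which this list lay turned with the spot trend removed and without Pool A array 3.

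Ribosome biogenesis, the longest functional list with 115 strains, had 17 higher and 16 lower calls (28.7% called). ERB1 and NOP16, which act in the maturation of the large subunit, were higher with both tags, by 0.78 and 0.76. RRP14 and UTP9, a subunit of the small-subunit processome, were lower with both, at -1.41 and -1.39. Splicing (82 strains) had 12 higher and 6 lower calls and a median of 0.10, the second highest list median, and CWC22, a spliceosome component, had its largest difference at 0.97, though only 1 of its tags was called. The aminoacyl-tRNA synthetases, which charge tRNAs with amino acids, had 0 higher and 9 lower calls among 34 strains (26.5% called). Over all strains 8.49% were higher and 13.4% lower. Of the 9 lower calls 1 had both tags called, that of ILS1, the isoleucyl-tRNA synthetase gene. It had -0.50 on the Pool B array, against 0.52 ± 0.27 on the Pool A arrays. The lowest difference on the list was -1.19, in another strain. Translation initiation and elongation genes (47 strains) had 3 higher and 4 lower calls. PAB1, the poly(A)-binding protein gene, differed by -0.96, with only its first tag called.

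In transcription the RNA polymerases had the highest share of called strains of all lists (29.0% of 31 strains, 5 higher and 4 lower). Over all strains 21.9% were called. The list's median was 0.06 above that of all strains, and -0.01 relative to it without Pool A array 1. RPA34 of polymerase I was higher by 1.12, and the shared subunit RPO26 (-1.40) and RPC82 of polymerase III (-1.13) were lower, each with both tags. The list for TFIID and SAGA, complexes that help polymerase II to start, had the highest median, 0.13, while 2 of its 28 strains were called higher and 6 lower. SPT20 was higher, with 0.94 on the Pool B array, against 0.12 ± 0.03 on the Pool A arrays. SPT8 was lower, with -0.38 on the Pool B array, against 0.75 ± 0.11 on the Pool A arrays, and AHC1, of the ADA complex, was lower (-1.07). SPT20 and SPT8 both encode SAGA subunits. Mediator (24 strains) had 2 higher calls and 1 lower, the lower one in CSE2 with 1 tag. TFIIH (10 strains) had 0 higher and 2 lower calls, led by TFB1.

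The lists for chromatin and DNA maintenance stand beside 8.49% higher and 13.4% lower over all strains. Chromatin remodelling had the lowest share of calls of all lists, 2 higher and 2 lower of 50 strains (8.0%). RSC2, a subunit of the RSC complex, was higher by 0.70, with only its first tag called. Histones, silencing and deacetylases (43 strains) had 3 higher (6.98%) and 4 lower calls, with DOT6 at -0.95 and only its first tag called. DNA repair (70 strains) had 1 higher and 10 lower calls (15.7%). MMS22, a gene of replication fork repair, was lower with both tags: it had -0.54 on the Pool B array, against 0.64 ± 0.16 on the Pool A arrays. NSE1, of the Smc5-Smc6 complex, was lower (-0.80) and stands on 2 lists. The other list, SMC complexes and kinetochore (66 strains), had 2 higher and 8 lower calls. Being matched by gene symbol, it also took in MCM5 of the replicative helicase (-0.82), which belongs to neither class.

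The nuclear pore and karyopherin list had the lowest median of all, -0.27 over 44 strains, of which 2 were called higher and 6 lower. Its median relative to all strains was -0.24 and ranged from -0.27 to -0.20 over the 9 alternatives, of which those of centring could not change it. Its array medians were -0.05 on the Pool B array, against 0.04, 0.19 and 0.19 on the Pool A arrays, with Pool A arrays 2 and 3 further from Pool B than array 1. NUP82, a nucleoporin of the cytoplasmic side, was its both-tag strain, with -0.79 on the Pool B array, against -0.12, 0.12 and -0.01 on the Pool A arrays. It was 1 of the 2 lower both-tag strains whose Pool A mean was not above 0. Its share called, 18.2%, was below that of all strains.

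The respiratory chain and ATP synthase list (89 strains) had 5 higher and 16 lower calls (23.6% called, against 21.9% of all strains). CYC1, the cytochrome c gene, had 0.12 on the Pool B array, against 1.14 ± 0.16 on the Pool A arrays, but only 1 of its tags was called. The tricarboxylic acid cycle list (34 strains) had 3 higher and 2 lower calls, and ICL1, the isocitrate lyase gene of the glyoxylate bypass, was lower (-1.07) with both tags. Glycolysis and fermentation (32 strains) had 3 in each direction. HXK2, the main hexokinase gene on glucose, had -0.61 on the Pool B array, against 0.46 ± 0.19 on the Pool A arrays, and its tags differed equally, by -1.07 and -1.07.

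Amino acid biosynthesis (83 strains) had 7 higher (8.43%) and 12 lower calls (14.5%), near the shares over all strains. Besides SHM2 its leading strain was THR1, the homoserine kinase gene of threonine synthesis, with -0.39 on the Pool B array, against 0.88 ± 0.15 on the Pool A arrays. Nucleotide synthesis (37 strains) had 2 higher and 6 lower calls and a median of -0.17, and APT1, an adenine phosphoribosyltransferase gene, was lower (-0.93) through its first tag. Sterol and sphingolipid synthesis (52 strains) had 4 higher and 5 lower calls. ERG11, the lanosterol demethylase gene and the target of azole antifungals, was lower with both tags, with -0.12 on the Pool B array, against 1.08 ± 0.14 on the Pool A arrays. Hexose and amino acid transporters (38 strains) had 4 higher and 7 lower calls (28.9%), with the permease gene ALP1 lower (-1.15) by both tags. The member furthest from 0 was the maltose permease gene MAL31, named after its values were seen, at 1.60 with its first tag alone called.

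Protein glycosylation and anchor synthesis (66 strains) had 8 higher calls, with GPI19 first, and 7 lower ones, with SWP1 of the oligosaccharyltransferase at -0.87. Cell wall synthesis (48 strains) had 3 higher and 8 lower calls. SCW4, a cell wall glucanase-like gene, was at 1.04 on the Pool B array, against 0.04 ± 0.03 on the Pool A arrays. CHS2, the chitin synthase of the primary septum, was high in both groups, with 0.47 on the Pool B array, against 1.64 ± 0.21 on the Pool A arrays.

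Protein turnover and folding lists had strains at both ends. The proteasome (44 strains) had 2 higher and 5 lower calls, with PBA1, an assembly chaperone, lower (a difference of -1.25) and PRE6, a core subunit, also lower (-0.94). Ubiquitin conjugation (50 strains) had 6 calls in each direction. UBC5, a conjugating enzyme gene, had 0.60 on the Pool B array, against -0.23 ± 0.18 on the Pool A arrays, and the polyubiquitin gene UBI4 had -0.70 on the Pool B array, against 0.05 ± 0.14 on the Pool A arrays. The F-box, DHHC and HECT list (29 strains) had 0 higher and 4 lower calls, led by AKR2 at -1.04 through its first tag. Heat shock proteins and chaperones (57 strains) had 3 higher and 6 lower calls. Besides CCT3, the Hsp90 co-chaperone gene CPR6 had 0.53 on the Pool B array, against 1.67 ± 0.19 on the Pool A arrays, and SSA4, an inducible Hsp70 gene, was lower (-0.79).

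Among the lists for membrane traffic, TRAPP, COG and exocyst, which tether vesicles, had 0 higher and 5 lower calls (16.7%) of 30 strains. Over all strains 8.49% were higher and 13.4% lower. The Golgi gene COG3 led the 5 at -0.84, with only its first tag called. The secretory SEC genes (36 strains) had 3 calls in each direction, and SEC23, a coat protein of vesicles that leave the endoplasmic reticulum, was lower (-0.81) with both tags. Vacuolar sorting and V-ATPase (66 strains) had 4 higher and 5 lower calls, with VPS5 of the retromer at -1.10. Autophagy (36 strains) had 3 higher and 6 lower calls, with ATG13 at -1.07 and only its first tag called. Peroxisome and beta-oxidation genes (43 strains) had 3 higher and 7 lower calls, and both-tag strains in each direction: PEX29 was higher, and PEX18 and PEX31 were lower (-1.50 and -1.29).

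Kinesins, dynein and microtubules (45 strains) had 2 higher and 8 lower calls, with the alpha-tubulin gene TUB1 at -1.07 from its first tag (-2.22, against 0.08 in the second). The actin list (45 strains) had 3 higher and 8 lower calls, with the kinase gene ARK1 lower (-0.91). Cell division cycle genes and the anaphase-promoting complex (57 strains) had 6 higher and 2 lower calls, with AMA1, its meiotic activator, higher with both tags: it had 0.84 on the Pool B array, against -0.01 ± 0.13 on the Pool A arrays. Pheromone and filamentation signalling (37 strains) also had more higher calls (6) than lower ones (3), yet its largest difference was that of MFA1, an a-factor gene, at -1.42, mostly from the second tag. Whether any of these lists differ from each other was not tested.

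The 351 strains whose genes have no standard name had 27 higher and 53 lower calls (22.8%), close to the share over all strains. YDL086W and YOR365C were the higher both-tag strains. YOR338W, the first of the lower ones, had -0.70 on the Pool B array, against 0.69, 0.72 and 0.56 on the Pool A arrays. YOL107W had -0.39 on the Pool B array, against 0.50, 1.28 and 1.07 on the Pool A arrays, and here Pool A array 1 lay nearer to Pool B than the other Pool A arrays did.

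**Figure D4:**
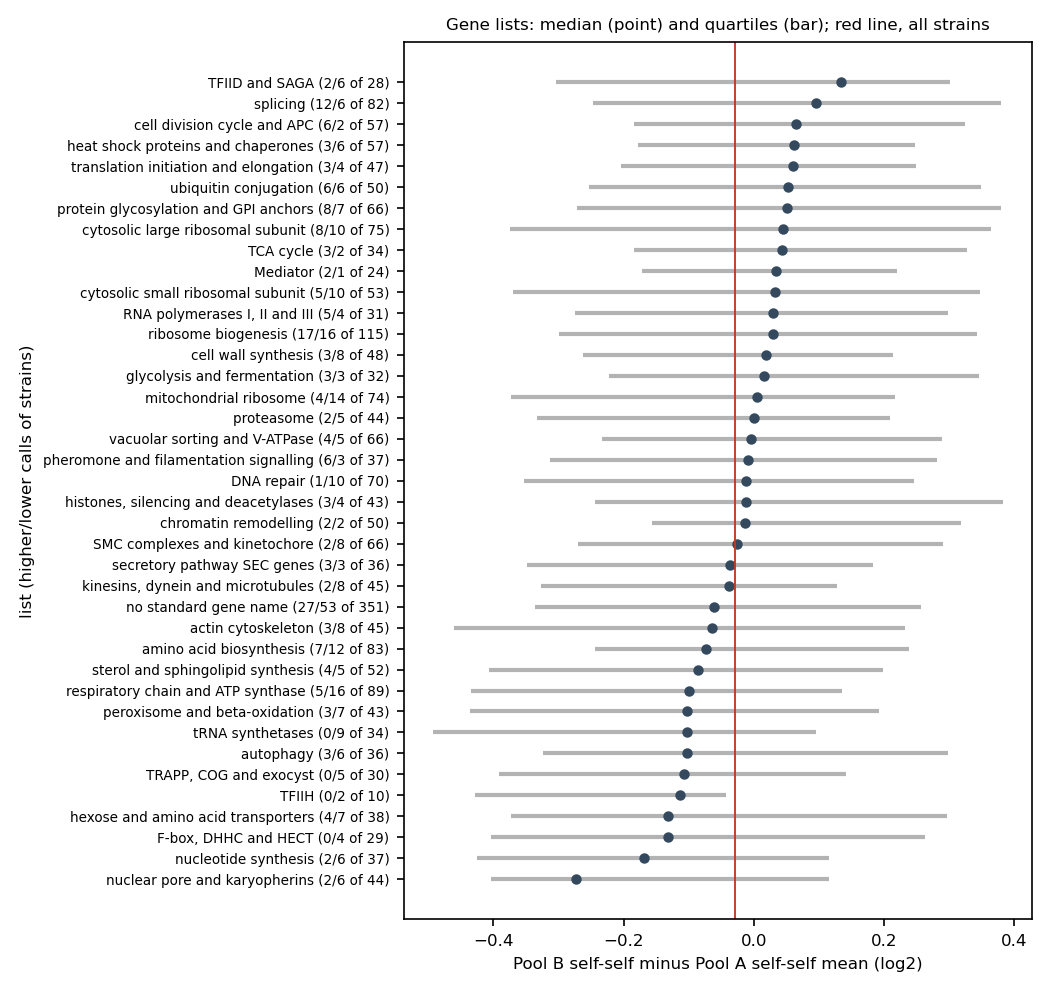
Median (point) and quartiles (bar) of the difference, Pool B self-self minus Pool A self-self mean in log2 units, for 39 gene lists, with higher and lower calls and list size in brackets and the median of all strains as a red line. The bars of all lists overlap the line except that of TFIIH (10 strains), and the nuclear pore list has the lowest median (-0.27).

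Calls were spread unevenly over the chromosomes that carry the deleted genes, beside 8.49% higher and 13.4% lower over all strains. Chromosome I had 17 higher (21.5%) and 0 lower calls among 79 strains, with a median difference of 0.27. Chromosome IV had 115 higher (16.5%) and 44 lower (6.29%) among 699, with a median of 0.20. Chromosome III had 23 higher and 9 lower calls among 135 strains. At the other end, chromosome XIV had 19 higher (5.12%) and 69 lower (18.6%) calls among 371 strains, with a median difference of -0.18. Chromosome XI had 8 higher (2.67%) and 49 lower (16.3%) among 300. The chromosome medians ranged from -0.10 to 0.06 on the Pool B array and from -0.25 to 0.19 in the Pool A mean.

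Spots were laid out in chromosome order, so chromosome and spot number cannot be told apart in single spots. The trend over spot number was a running median along this same order. Removing it also takes out, by construction, a shift shared by the strains of a long chromosome. The values after removal therefore cannot decide between chromosome and spot number, and they are given as a description. With the trend over spot number removed, the median difference was 0.06 on chromosome I, with 4 higher and 1 lower calls, and 0.00 on chromosome IV, with 34 higher and 70 lower. On chromosome XIV it was 0.01, with 40 higher and 29 lower, and on chromosome XI -0.02, with 17 higher and 33 lower. Chromosome III turned to a median of -0.04, with 3 higher and 20 lower. Tags with a further run of spots, which lies elsewhere in the block, gave another view. For the same tags the median difference was 0.34 at the single spot and 0.20 in the run on chromosome I, 0.22 and 0.07 on chromosome IV, and -0.30 and -0.08 on chromosome XIV. On chromosome III the median turned sign, with 0.12 at the single spot and -0.13 in the run. Over the 16 chromosomes the median was nearer 0 in the run on 9 and further from 0 on 7, among them II (-0.01 and -0.22), V (-0.11 and -0.26) and VIII (-0.12 and -0.21), and the chromosomes as a whole did not move one way.

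**Figure D5:**
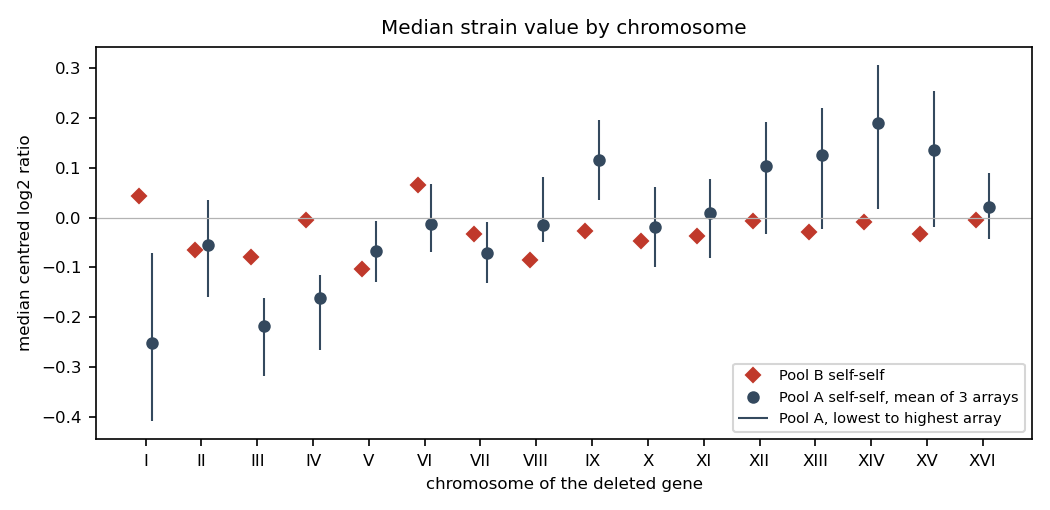
Median centred log2 ratio of the strains of each chromosome on the Pool B self-self array (diamonds) and averaged over the 3 Pool A self-self arrays (circles, with a line over the lowest to highest array). The diamonds stay between -0.10 and 0.06, while the circles run from -0.25 on chromosome I to 0.19 on chromosome XIV.

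Runs of at least 4 neighbouring genes whose strains were all called in the same direction occurred 12 times, 2 higher and 10 lower, and held 50 strains. Over all strains 8.49% were called higher and 13.4% lower, and whether these shares alone would give as many runs was not tested. With the spot trend removed 31 of the 50 strains in runs were still called. The longest runs held 5 strains. GPR1, SLM3, DBP10, PRP9 and ARP2 on chromosome IV were all higher, by 0.59 to 0.90, and 1 of them was called with the trend removed. YPR196W, SGE1, ARR1, ARR2 and ARR3 on chromosome XVI were all lower, with differences of -1.39 to -0.63, and 4 of them were called with the trend removed. The ARR genes form the arsenic resistance cluster near the end of that chromosome. In the run of NIP100, MRPL40, COX10 and OYE3 on the same chromosome, with differences of -1.28 to -0.66, all 4 were still called.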

How the data were processed

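The deposited value table holds, per the labels and the values, 1 log2 ratio of the 2 channels for each of 22575 spots of 5 tag arrays, with 0 missing values. The log base was read from the values: 100% of those tested were ratios of 3 decimals in base 2, against 12.0% in base 10. How the arrays were scanned, background-corrected or normalized is not given in the sources used here. Gene names came from the platform annotation for 18794 spots, and 3781 had none. Chromosomes came from a gene table of assembly R64, which lacked 4 of the genes.

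Centring subtracted from each array the median over its gene-named spots. Spots of a gene were averaged within each block (blocks offset by 10971 spot numbers), and both tags were averaged to a strain. A linear model (lmFit, contrasts.fit and eBayes of limma 3.58.1, run in R 4.3.3) was fitted to the 4 self-self arrays, with all residual spread from the 3 Pool A arrays, two-sided, with Benjamini-Hochberg adjustment. The number of arrays limits the precision. Single values per array were not tested, since 1 array against 3 cannot reach an exact permutation p under 0.05.

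Named strains were the 12 furthest in each direction among strains with both tags called with the mean, and for each list up to 2 such strains in each direction or, with none, the called member furthest from 0. The comparison, the 39 gene lists (matched by gene symbol), the alternatives and the rule for named strains were chosen with earlier results of these data known. Keeping the 5444 tag sets of the array apart was an alternative chosen after seeing the data. Alternatives changed centring, scaling, spot trend (running median over 301 tags), averaging, variance model and arrays. No tag sequences were used here.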

Additional observations from a re-analysis of the deposited data

How the results depend on the processing

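No paired analysis was possible, because there is 1 Pool B array and the labels pair it with no Pool A array. Higher and lower strain counts (452 and 713) became 5 and 1831 without centring, 703 higher with tag blocks centred separately, 222 higher when centred on all spots, 208 and 471 when scaled to a common median absolute deviation, 771 higher with quantile normalization, and 33 and 92 with both tags required. Tag counts (812 and 1362) became 44 and 2578 without centring, and the higher tags 1804 with blocks centred separately, 420 centred on all spots and 1716 with quantile normalization. Both-tag counts (33 and 92) became 1 and 342 without centring, 167 and 141 with blocks centred separately, 8 and 42 centred on all spots, 142 and 164 with quantile normalization, 15 higher after scaling and 61 higher with a variance trend. Leaving out each Pool A array in turn gave 202 to 604 higher and 427 to 1026 lower strains, 0 to 602 higher and 0 to 1019 lower tags, and 0 to 15 higher and 0 to 50 lower both-tag strains. The cause of these changes was not tested. Of the 72 named strains 0 turned direction, and 2 lost their call in an alternative other than no centring: CSE2 with the spot trend removed (adjusted p = 0.058) and RSC2 without Pool A array 3 (adjusted p = 0.055). With a lone Pool B array, its own spread cannot be estimated.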

Other observations

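Of the 125 strains called by both tags, 125 were called by both again with tag blocks centred separately, 122 with quantile normalization, 93 with scaled arrays, 79 with the spot trend removed, 62 without Pool A array 2, 58 without Pool A array 3 and 50 when centred on all spots. The 321 unnamed spots at the end of the table ranged from -2.44 to -1.18 on the Pool B array, and their median on the mixed array was 7.88.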
